A study of Mus musculus with 4 samples.

Results

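The 10 genes described here encode the proteins that move calcium out of the cytosol, release it from internal stores or admit it at the surface of keratinocytes. They were taken by name from the 56493 genes of the deposited count table, and all 10 were found. They are the endoplasmic reticulum (SERCA) pumps Atp2a2 and Atp2a3, the Golgi pump Atp2c1, the plasma membrane pumps Atp2b1 and Atp2b4, the IP3 receptors Itpr1, Itpr2 and Itpr3, and the channels Trpv3 and Trpv4. RNA came from the separated dorsal epidermis of mice with floxed Stim1 and Stim2 alleles. In the cKO group a Cre recombinase under the keratin 14 promoter was meant to remove both genes in epithelium, and the control group carried the floxed alleles (Stim1/2fl/fl). Each group had 2 libraries. The labels used here give no age, sex or strain, no Cre status for the controls, and do not say whether the libraries came from separate mice, so p-values measure the spread between these libraries, which may be technical.

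When a receptor activates phospholipase C, IP3 opens IP3 receptors in the endoplasmic reticulum and stored calcium enters the cytosol. STIM1 and STIM2 sense the emptied store and open channels of the cell surface. SERCA pumps then refill the store, the Golgi pump fills the Golgi, and plasma membrane pumps expel calcium from the cell. In human skin, loss of one copy of ATP2A2 causes Darier disease and loss of one copy of ATP2C1 causes Hailey-Hailey disease, both with loss of cohesion between keratinocytes. TRPV3 and TRPV4 are warmth-gated cation channels of keratinocytes.

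Libraries held 118858 to 322426 counts, and cKO replicate 2 was the shallowest. One count there corresponded to 11.2 normalised counts (CPM, relative to TMM-scaled library sizes), against 3.19 to 5.34 in the other libraries. The targeted gene Stim1 had 24 and 62 counts in control against 23 and 6 in cKO, and Stim2 had 3 and 18 against 0 and 1. Scaled for depth, Stim1 was at 128 and 198 CPM in control against 93.0 and 67.4 CPM in cKO. Stim2 was at 16.0 and 57.5 CPM against 0 and 11.2 CPM. Both were thus lower in both cKO libraries, a pattern that 19.6% of all tested genes showed. Neither passed the test (edgeR quasi-likelihood test, adjusted p 0.671 for Stim1, and 0.646 for Stim2 in a fit to which Stim2 was added). Whether the floxed exons were removed was not examined. The epidermal label was met by keratinocyte markers, since all 7 basal and all 9 suprabasal markers were detected in every library. The basal sum was 6041 and 4927 CPM in control and 9041 and 6249 CPM in cKO, higher in both cKO libraries. Its members did not move together. Krt14 was at 928 and 865 CPM in control against 4355 and 3001 CPM in cKO. Krt15 went the other way, from 2855 and 2098 CPM in control to 841 and 1551 CPM in cKO. For the other basal markers the groups overlapped. The suprabasal sum overlapped between the groups, and its member Flg was called higher in cKO (log2 fold change 5.07, edgeR adjusted p 0.000593). Without a call, Krt1 was higher in both cKO libraries (313% of control), and Dsg1a (35.1%) and Ivl (43.3%) were lower in both. For the other suprabasal markers the groups overlapped. Endothelial markers summed to at most 2 counts in any library and smooth muscle markers to at most 5. Of the marker sums of other cell types, those of skeletal muscle, hair follicle and, narrowly, T cells separated the groups. The groups overlapped for the Langerhans cell sum (4184 and 2449 CPM in control, 1569 and 3866 CPM in cKO). They also overlapped for the fibroblast, sebaceous gland, melanocyte, adipocyte, and red blood cell and platelet sums. Skeletal muscle markers summed to 1510 and 1044 CPM in control, with 11 and 12 of 12 markers detected, and to 44.5 and 169 CPM in cKO, with 4 of 12 detected in each. Myh2, Myh4, Tnnt3, Tnni2, Myl1 and Pvalb were at 0 counts in both cKO libraries. Hair follicle markers summed to 5011 and 6163 CPM in control and to 1880 and 2180 CPM in cKO, with 6 to 8 of the 11 markers in the table detected per library and Krt27, Krt73 and Krt35 at 0 in all of them. Most of this sum came from Krt17 (3314 and 4436 CPM in control, 1314 and 1652 CPM in cKO) and Tchh (1371 and 1271 CPM in control, 400 and 292 CPM in cKO). T cell markers summed to 331 and 252 CPM in control and to 239 and 191 CPM in cKO, with 5 to 7 of 7 detected per library. This gap was narrow and rested on 62 and 79 counts in control against 59 and 17 in cKO. Cd3e, Ptprc and Trdc were lower in both cKO libraries, and the groups overlapped for Cd3d, Cd3g, Cd2 and Thy1. In bulk tissue fewer cells of a type and less RNA per cell cannot be told apart.

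**Figure D1:**
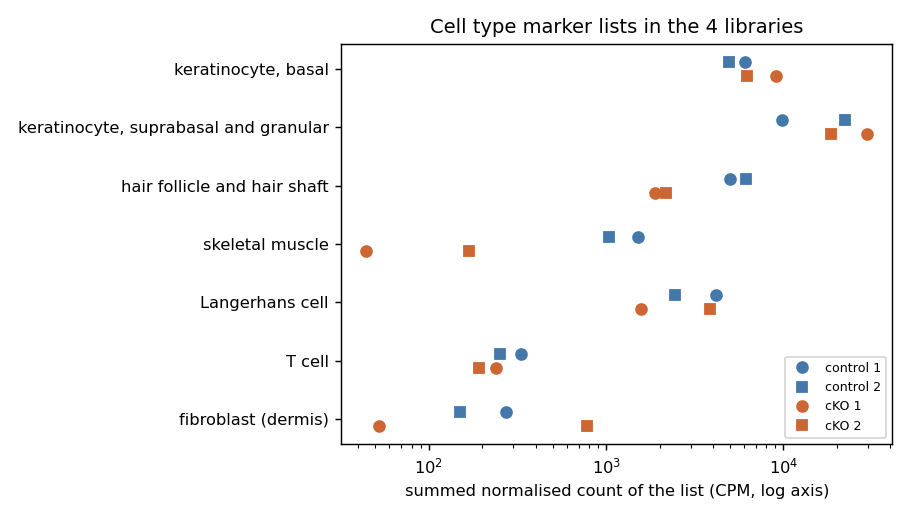
Summed normalised count (CPM, log axis) of 7 marker lists, with 1 point per library (circles replicate 1, squares replicate 2). Both cKO libraries lie below both control libraries for skeletal muscle (44.5 and 169 against 1510 and 1044 CPM) and for hair follicle (1880 and 2180 against 5011 and 6163 CPM). The groups overlap for the suprabasal, Langerhans cell and fibroblast lists.

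None of the 10 genes passed the test, and none of the 7 with an estimate passed with DESeq2 or limma-voom. Of the 10, 5 passed the filter on low counts (Atp2a2, Atp2b1, Atp2b4, Itpr2 and Itpr3) and 5 did not (Atp2a3, Atp2c1, Itpr1, Trpv3 and Trpv4). Of all 4243 tested genes, 36, or 0.848%, passed an adjusted p of 0.05 (edgeR quasi-likelihood test with Benjamini-Hochberg adjustment). In 3 of the 5 filtered members, Atp2b1, Atp2b4 and Itpr3, both cKO values lay below both control values, a pattern that 19.6% of all tested genes showed. No filtered member had both cKO values above both control values, which 18.9% of tested genes did. At an unadjusted p under 0.05, 2 of the 5 were lower and 0 higher, where 4.17% of tested genes were lower and 4.22% were higher. A comparison of 2 with 2 libraries by exact permutation cannot give a two-sided p below 0.333, so single values were tested only in the fit across all genes.

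**Figure D2:**
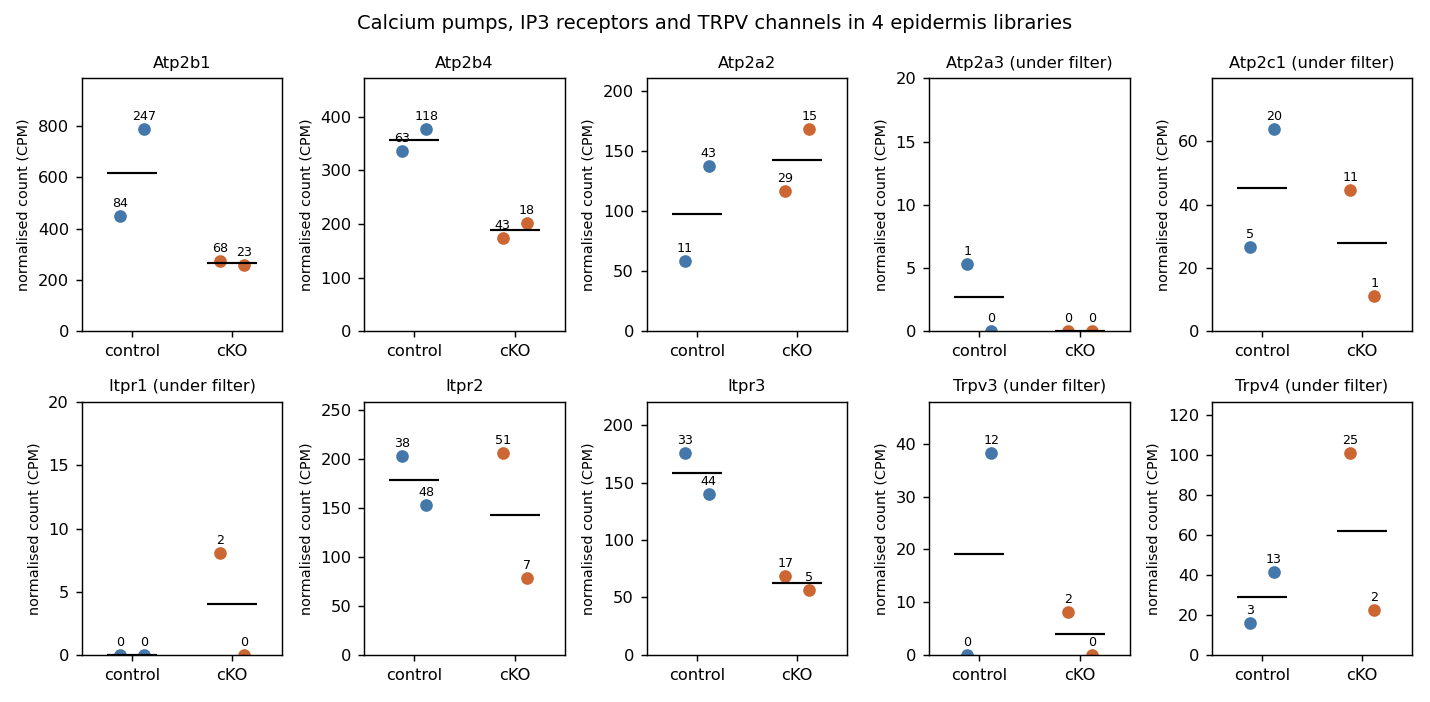
Normalised count (CPM) of each of the 10 genes, with 1 point per library, the group mean as a bar and the raw count printed at each point. Atp2b1, Atp2b4 and Itpr3 have both cKO points below both control points, and the groups overlap for the other genes.

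The plasma membrane pumps had the highest counts of the set and were lower in both cKO libraries. Atp2b1 (ENSMUSG00000019943, chromosome 10, 98750268 to 98862005, plus strand), which encodes the PMCA1 pump found in most tissues, had 84 and 247 counts in control against 68 and 23 in cKO. These were 448 and 789 CPM in control and 275 and 258 CPM in cKO. The cKO libraries were close to each other, whereas control replicate 2 was far above control replicate 1, and the groups did not overlap. The cKO mean of 266.7 ± 11.6 CPM (SD, n = 2) stood against a control mean of 618.5 ± 240.8 CPM (SD, n = 2), a level of 43.1% of control. The log2 fold change of Atp2b1 was -1.21 with a standard error of 0.45 and a 95% interval from -2.19 to -0.24 (edgeR adjusted p 0.430, unadjusted p 0.0184). Without control replicate 2 it was -0.74.

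Atp2b4 (ENSMUSG00000026463, chromosome 1, 133627195 to 133728779, minus strand), which encodes PMCA4, a second pump of the same family, had 63 and 118 counts in control against 43 and 18 in cKO. The normalised counts were 336 and 377 CPM in control and 174 and 202 CPM in cKO. Here the replicates of each group were close and the groups did not overlap. The cKO mean was 188.1 ± 20.1 CPM (SD, n = 2) against 356.5 ± 28.7 CPM (SD, n = 2), which is 52.8% of control. The log2 fold change of Atp2b4 was -0.94 with a standard error of 0.44 and a 95% interval from -1.88 to 0.0012 (edgeR adjusted p 0.596, unadjusted p 0.0502). Its estimate stayed between -1.03 and -0.85 when any 1 library was left out.

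Pooled as a class, the plasma membrane pumps had 147 and 365 counts in control against 111 and 41 in cKO. As a share of all counts, the control libraries had 0.0734% (95% Wilson interval 0.0625% to 0.0862%) in replicate 1 and 0.113% (0.102% to 0.125%) in replicate 2. The cKO libraries had 0.0393% (0.0327% to 0.0474%) and 0.0345% (0.0254% to 0.0468%) in the same order. The intervals of the cKO libraries lay below those of the control libraries. All intervals here cover counting error only. The class sum averaged 454.8 ± 8.46 CPM (SD, n = 2) in cKO, or 46.6% of the control mean of 975 ± 270 CPM (SD, n = 2), and sums over members were not tested. Both genes contributed, since Atp2b1 made up 57.1% and 67.7% of the class in control, and 61.3% and 56.1% in cKO. The muscle, hair follicle and, narrowly, T cell marker sums given above separated the groups in the same direction. The basal keratinocyte sum separated them in the opposite one, although its member Krt15 was lower in cKO. The part of these sums in the lower counts of these pumps, and of Itpr3 described next to the other IP3 receptors, was not tested.

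Windows before a listed transcript start of the 3 genes whose groups did not overlap are shown because these members were lower together. The RefSeq promoter table (GRCm38.p6, a different build from the GRCm39 coordinates given for the genes) lists windows for 8 of the 10 members. The 250 bases before a listed start are printed 5′ to 3′ on the gene's strand, with each CCGCCC or its complement GGGCGG, the core of a GC box, in capitals. Atp2b1 has 2 listed windows. The one shown holds no annotated exon base of the gene but lies downstream of the other, which starts at 98914392, holds 236 exonic bases and is not printed. The Atp2b4 window shown holds 2 exonic bases of its gene. Whether it lies before the first exon or inside the gene was not examined. Its composition may therefore not be comparable with that of the other windows.
Atp2b1, chr10:98914902-98915151, plus strand: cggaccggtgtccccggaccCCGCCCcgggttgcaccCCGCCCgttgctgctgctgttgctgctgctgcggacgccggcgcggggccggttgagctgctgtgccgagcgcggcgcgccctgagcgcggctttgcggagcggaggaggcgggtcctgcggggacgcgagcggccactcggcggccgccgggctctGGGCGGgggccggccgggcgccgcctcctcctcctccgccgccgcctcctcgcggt
Atp2b4, chr1:133753748-133753997, minus strand: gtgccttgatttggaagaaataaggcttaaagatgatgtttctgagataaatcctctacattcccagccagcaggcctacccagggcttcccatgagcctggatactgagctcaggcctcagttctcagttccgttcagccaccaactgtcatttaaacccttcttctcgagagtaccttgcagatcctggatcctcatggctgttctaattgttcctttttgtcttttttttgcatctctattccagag
Itpr3, chr17:27057054-27057303, plus strand: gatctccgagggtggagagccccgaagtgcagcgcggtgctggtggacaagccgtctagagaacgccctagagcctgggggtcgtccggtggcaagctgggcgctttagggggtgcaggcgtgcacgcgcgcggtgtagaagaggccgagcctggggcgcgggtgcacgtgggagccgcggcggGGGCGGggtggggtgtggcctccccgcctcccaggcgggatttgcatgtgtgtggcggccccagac
The windows differ in composition. The Atp2b1 window is 80.8% G or C with 41 CG dinucleotides, the Itpr3 window is 72% with 25, and the Atp2b4 window is 45.6% with 2, against a median of 52.4% and 6 over all 32851 listed windows. The GC box core occurs 3 times in the Atp2b1 window, 1 time in that of Itpr3 and 0 times in that of Atp2b4, and 32.7% of all windows hold it. The NFAT core GGAAA, searched on both strands, is in none of the 3 printed windows, but the unprinted Atp2b1 window holds 1 match, beside 4 of the GC box core. It is in 55.6% of all windows. The AP-1 motif TGANTCA is in none of these 4 windows and in 6.75% of all windows. These matches describe the letters of the windows only.

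The SERCA pumps did not follow the plasma membrane pumps. Atp2a2 (ENSMUSG00000029467, chromosome 5, 122591576 to 122640288, minus strand), which encodes SERCA2, the main store-filling pump of keratinocytes, had 11 and 43 counts in control against 29 and 15 in cKO. These were 58.7 and 137 CPM in control and 117 and 169 CPM in cKO, so that the groups overlapped and control replicate 1 was the lowest library. The control mean was 98.0 ± 55.6 CPM (SD, n = 2) and the cKO mean 142.9 ± 36.3 CPM (SD, n = 2). The log2 fold change of Atp2a2 was 0.46 with a 95% interval from -0.73 to 1.66 (edgeR adjusted p 0.941), an interval that spans both lower and higher levels. Without control replicate 2 the estimate was 1.24 and without control replicate 1 it was 0.021. Atp2a3, which encodes SERCA3, a pump best known from blood and endothelial cells, had a single count, in control replicate 1, so no fold is given. For a count of 0 the limit of 3 counts corresponds to 12.1 CPM in cKO replicate 1 and 33.7 CPM in cKO replicate 2.

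The balance between the 2 kinds of pump does not depend on how libraries are scaled, and it was examined after the values had been seen. SERCA counts were 29 of 140 SERCA and plasma membrane pump counts in cKO replicate 1, or 20.7% (95% Wilson interval 14.8% to 28.2%), and 15 of 56, or 26.8% (17% to 39.6%), in cKO replicate 2. In control they were 12 of 159, or 7.55% (4.37% to 12.7%), and 43 of 408, or 10.5% (7.92% to 13.9%). Each cKO share was above each control share, and the intervals of the groups did not overlap. Whether the SERCA and plasma membrane pumps differed in their response was not tested over libraries.

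**Figure D3:**
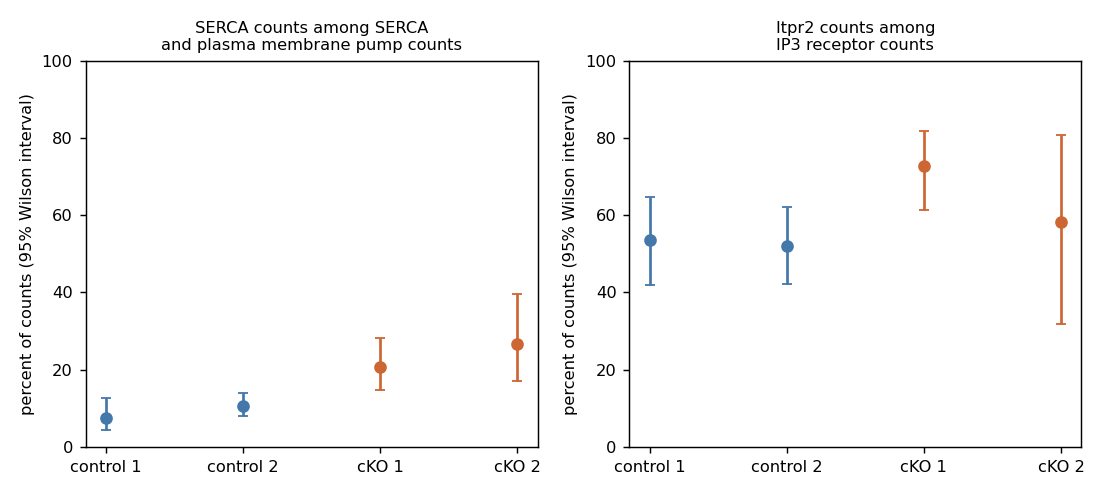
Left, SERCA counts as a percent of SERCA and plasma membrane pump counts; right, Itpr2 counts as a percent of IP3 receptor counts; 1 point per library with its 95% Wilson interval. The SERCA share is 20.7% and 26.8% in cKO against 7.55% and 10.5% in control, and the Itpr2 share is 72.9% in cKO replicate 1 and between 52.2% and 58.3% in the other libraries.

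The Golgi pump was too shallow for a direction. Atp2c1 (ENSMUSG00000032570, chromosome 9, 105280738 to 105404518, minus strand), which encodes SPCA1, had 5 and 20 counts in control against 11 and 1 in cKO. The levels were 26.7 and 63.9 CPM in control and 44.5 and 11.2 CPM in cKO, and the groups overlapped. In a fit to which the members under the filter were added, the log2 fold change of Atp2c1 was -0.54 with a 95% interval from -2.51 to 1.42 (edgeR adjusted p 0.970). The estimate was 0.22 without control replicate 2 and -2.05 without cKO replicate 1. Exons of Atp2c1 share 1837 bases with Aste1 on the opposite strand, a gene with 4 counts in all libraries together, and use of strand in the counting is not given in the sources used here.

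Of the IP3 receptors, Itpr3 was lower in both cKO libraries while Itpr2 was not. Itpr3 (ENSMUSG00000042644, chromosome 17, 27276278 to 27341197, plus strand), which encodes the type 3 receptor, had 33 and 44 counts in control against 17 and 5 in cKO. The levels were 176 and 141 CPM in control and 68.7 and 56.2 CPM in cKO, with both groups tight and no overlap. The cKO mean of 62.5 ± 8.87 CPM (SD, n = 2) was 39.5% of the control mean of 158.3 ± 25.2 CPM (SD, n = 2). The log2 fold change of Itpr3 was -1.29 with a standard error of 0.53 and a 95% interval from -2.44 to -0.14 (edgeR adjusted p 0.494, unadjusted p 0.0302). Leaving out any 1 library kept it between -1.52 and -1.13.

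Itpr2 (ENSMUSG00000030287, chromosome 6, 146009797 to 146403721, minus strand), which encodes the type 2 receptor, had 38 and 48 counts in control against 51 and 7 in cKO. This gave 203 and 153 CPM in control and 206 and 78.7 CPM in cKO. The cKO replicates held the highest and the lowest value, so the groups overlapped. The log2 fold change of Itpr2 was -0.21 with a 95% interval from -1.32 to 0.89 (edgeR adjusted p 0.989), and it was 0.23 without cKO replicate 2 and -1.20 without cKO replicate 1. Itpr1, the type 1 receptor known best from neurons and smooth muscle, had 2 counts in cKO replicate 1 and 0 elsewhere, so no fold is given.

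Together the IP3 receptors had 71 and 92 counts in control against 70 and 12 in cKO, or 379 and 294 CPM against 283 and 135 CPM. The cKO values were below the control values, by little in cKO replicate 1. Within the class, Itpr2 made up 51 of 70 counts in cKO replicate 1, which is 72.9% (95% Wilson interval 61.5% to 81.9%), and 7 of 12 in cKO replicate 2, which is 58.3% (32% to 80.7%). In control the Itpr2 share was 53.5% (42% to 64.6%) and 52.2% (42.1% to 62.1%). The interval of cKO replicate 2 covers the control values, so a difference in receptor makeup was not detectable in that library.

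The TRPV channels were sparse and their replicates disagreed. Trpv4 (ENSMUSG00000014158, chromosome 5, 114760213 to 114796482, minus strand) had 3 and 13 counts in control against 25 and 2 in cKO, or 16.0 and 41.5 CPM against 101 and 22.5 CPM. Only cKO replicate 1 was high, and cKO replicate 2 lay between the control libraries. In the fit with members added, the log2 fold change of Trpv4 was 1.17 with a 95% interval from -0.64 to 2.98 (edgeR adjusted p 0.815), and it became -0.45 without cKO replicate 1 and 2.04 without control replicate 2. Trpv3 (ENSMUSG00000043029, plus strand of chromosome 11, 73158214 to 73191189) had 0 and 12 counts in control against 2 and 0 in cKO. Nearly all of its counts came from control replicate 2, and with both cKO libraries under 3 counts and control replicate 1 at 0 no fold is given. Pooled, the channels had 3 and 25 counts in control against 27 and 2 in cKO, with means of 47.9 ± 45.1 CPM (SD, n = 2) and 65.8 ± 61.3 CPM (SD, n = 2), so the spread within each group exceeded the difference between them.

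**Figure D4:**
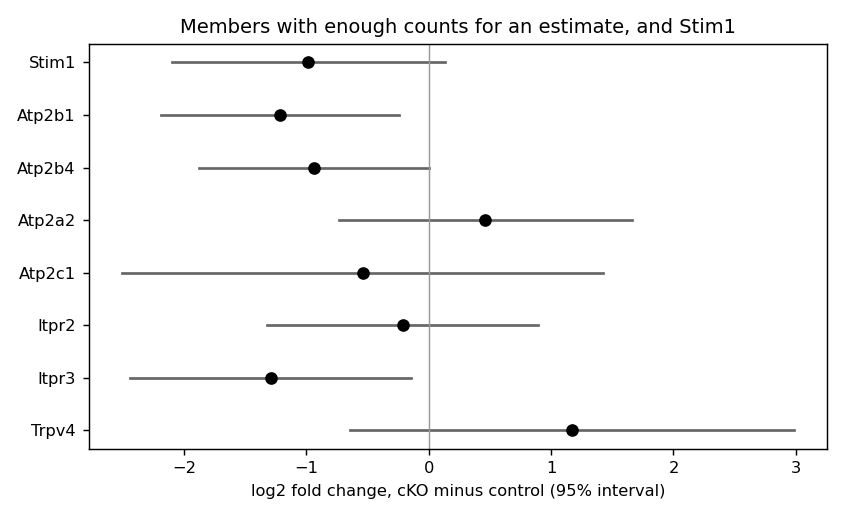
Log2 fold change (cKO minus control, edgeR) with its 95% interval for Stim1 and the 7 members with counts above 3 in both groups. The intervals of Atp2b1 and Itpr3 lie below 0, that of Atp2b4 reaches 0.0012, and the other members' intervals span 0; no adjusted p is under 0.05.

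Levels were compared between genes per kilobase of exonic length as the table lists it, although a 3' library counts transcript ends. In control the order of mean levels was Atp2b1 (40.6 CPM per kb), Atp2b4 (29.1 CPM per kb), Itpr3 (17.6 CPM per kb), Atp2a2 (16.1 CPM per kb), Itpr2 (12.03 CPM per kb), Trpv4 (7.06 CPM per kb), Atp2c1 (4.67 CPM per kb) and Trpv3 (3.28 CPM per kb). In cKO the order was Atp2a2 (23.5 CPM per kb), Atp2b1 (17.5 CPM per kb), Atp2b4 (15.4 CPM per kb), Trpv4 (15.2 CPM per kb), Itpr2 (9.62 CPM per kb), Itpr3 (6.93 CPM per kb) and Atp2c1 (2.87 CPM per kb). Trpv3 is left out there, with 2 and 0 counts. The place of Trpv4 in cKO rests on replicate 1, at 101 CPM against 22.5 CPM in replicate 2, and on the division by length. Counts of transcript ends need not grow with length, so the division can itself set the order. By mean CPM alone, cKO had Atp2b1 at 266.7, Atp2b4 at 188.1, Atp2a2 at 142.9 and Itpr2 at 142.4 CPM. Below these came Itpr3 at 62.5, Trpv4 at 61.8 and Atp2c1 at 27.9 CPM. In control Atp2b1 (618.5 CPM) and Atp2b4 (356.5 CPM) were also the highest. Itpr2 (178 CPM) there stood above Itpr3 (158.3 CPM) and Atp2a2 (98.0 CPM). With 2 libraries per group the order of neighbours was not tested.

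The pattern of Atp2b1, the member with the most counts, was set beside all tested genes. By distance of centred log2(CPM + 1) over the 4 libraries the nearest were Ptprf (distance 0.059), Lsr (0.154) and Npepps (0.236), and 52 genes lay within a distance of 0.5. Ptprf had 67 and 193 counts in control against 55 and 19 in cKO. Ptprf encodes a receptor tyrosine phosphatase, Lsr a protein of tricellular junctions and Npepps a cytosolic aminopeptidase. None of these 3 passed the test (edgeR adjusted p 0.417 to 0.494), and 4 libraries cannot single out such likeness.

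Other genes of the pathway were read from lists. The list of other calcium transporters, with 18 genes such as the sodium-calcium exchangers, had 0 genes with enough counts to test. The list of IP3 production and IP3 receptor partners had 12 of 36 genes tested, with a median log2 fold change of -0.23, and the list of other release and TRP channels had 4 of 31 tested, with a median of -0.36. The median of all tested genes was 0.007. In both lists 0 genes were called higher or lower by edgeR, by DESeq2 or by limma-voom, and 0 had an unadjusted edgeR p under 0.05, against called shares of 0.660% higher and 0.189% lower over all tested genes. From a further list, of calcium stores and mitochondrial uptake, 14 tested genes are reported here, with a median of 0.23, 9 estimates above 0 and 5 below. In 4 of these 14 both cKO values lay above both control values, and in 2 both lay below. Of all tested genes 18.9% and 19.6% did so.

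Among the store genes Calr, the calcium-binding chaperone calreticulin of the endoplasmic reticulum lumen, had 30 and 43 counts in control against 79 and 36 in cKO. The levels were 160 and 137 CPM in control and 319 and 405 CPM in cKO, and the groups did not overlap. The log2 fold change of Calr was 1.27 with a 95% interval from 0.32 to 2.22 (edgeR adjusted p 0.359, unadjusted p 0.0125). Letm1, an ion exchanger of the inner mitochondrial membrane, had 6 and 9 counts in control and 15 and 5 in cKO. These were 32.0 and 28.7 CPM against 60.7 and 56.2 CPM, higher in both cKO libraries (log2 fold change 0.95, edgeR adjusted p 0.880). Micu2, a regulator of the mitochondrial calcium uniporter, had 17 and 53 counts in control and 17 and 4 in cKO. At 90.7 and 169 CPM against 68.7 and 45.0 CPM it was lower in both cKO libraries (log2 fold change -1.14, edgeR adjusted p 0.671). Vdac1, a channel of the outer mitochondrial membrane, had 32 and 59 counts against 32 and 12. It too was lower in both, at 171 and 188 CPM against 129 and 135 CPM (log2 fold change -0.45, edgeR adjusted p 0.910).

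The named genes of the list of IP3 production and IP3 receptor partners did not pass the test. Plch2, a phospholipase C, had 10 and 17 counts in control against 18 and 10 in cKO (log2 fold change 0.72, edgeR adjusted p 0.889). These were 53.4 and 54.3 CPM against 72.8 and 112 CPM, higher in both cKO libraries. Tmbim6, a protein of the endoplasmic reticulum that limits cell death, was at 0.39, Irag2 at -0.87 and Itpripl2 at -1.12 (edgeR adjusted p 0.799 to 0.936). Irag2 was lower in both cKO libraries, and the groups overlapped for Tmbim6 and Itpripl2. Of the 12 tested genes of this list, both cKO values lay below both control values in 3 and above in 1. Among the channels, Ryr1, the ryanodine receptor of skeletal muscle, had 18 and 12 counts in control against 2 and 5 in cKO. At 96.1 and 38.3 CPM against 8.09 and 56.2 CPM its groups overlapped (log2 fold change -1.36, edgeR adjusted p 0.819). The part of the muscle marker sums given above in these Ryr1 values was not tested. Trpm7, a channel fused to a kinase, was at 0.72 with 9 and 21 counts in control and 37 and 2 in cKO, so its cKO replicates held the highest and the lowest count. The lysosomal channel Mcoln1 was at 0.094 and the reticulum leak channel Tmco1 at -0.82 (adjusted p 0.904 to 0.997).

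**Figure D5:**
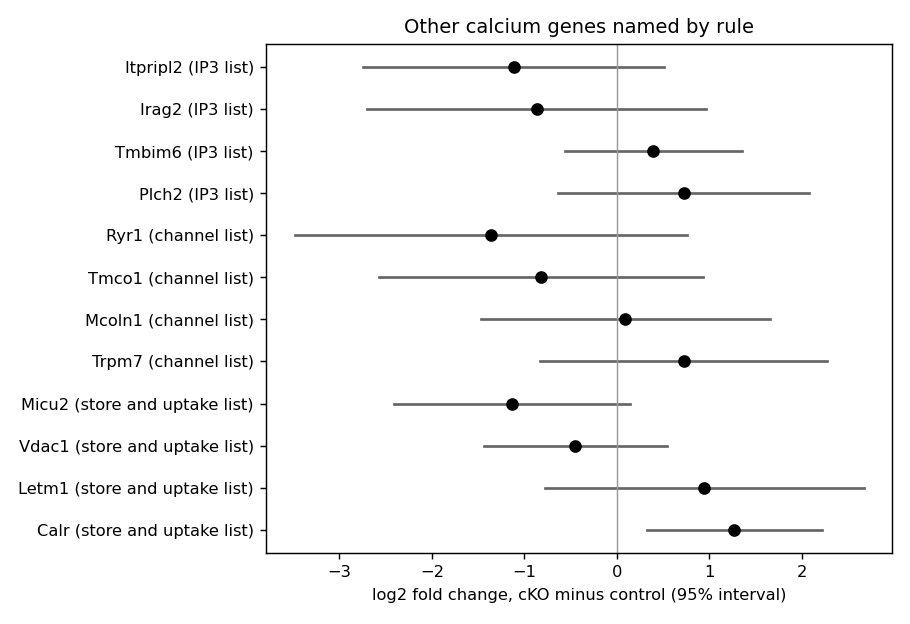
Log2 fold change (cKO minus control, edgeR) with its 95% interval for the 12 other calcium genes named by a rule of size in each list. Of these 12, Calr has an interval above 0 (0.32 to 2.22), the other intervals span 0, and no adjusted p is under 0.05.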

How the data were processed

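Libraries were made with the QIAseq UPX 3' Transcriptome kit and converted for MGI sequencing, per the labels' protocols. The authors deposited whole-number counts per gene without normalisation. The submitters' processing notes name Trim Galore 0.6.7, Trimmomatic 0.39, cutadapt 3.7, STAR 2.7.10a, featureCounts 2.0.1 and GRCm39. Settings for strand, multiply aligned reads and molecular identifiers are not given in the sources used here. Gene coordinates are those of the table, and 0 per-sample columns were unused.

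Counts were tested with edgeR 4.0.16 (R 4.3.3). The filterByExpr filter (minimum count 10, minimum total 15) left 4243 of 56493 genes with 87.6% of counts. TMM factors were 0.833 to 1.12. glmQLFit and glmQLFTest had genotype as the only term, with Benjamini-Hochberg adjustment at 0.05. Members under the filter were tested in a fit of 4249 genes. Standard errors are the absolute log2 fold change over the square root of F. No fold is given where a group had at most 3 counts in both libraries. The fit was tested on simulated data, with 3 draws per size of change. It called 0% to 1% of genes with a log2 fold change of 1 in either direction. At 2 it called 19% to 54%, and at 3 it called 86.5% to 93.5%. False calls reached 15 in a draw, and 0 where no gene was changed. Not passing the test thus says little about changes near 1.

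Replicates of a group differed by more than counting noise (chi-square per degree of freedom 5.10 in cKO and 4.55 in control). The members and lists were chosen with earlier results of these data known. Named are the members, Stim1, Stim2, the 3 genes nearest the member with the most counts, and in each list the 2 largest and 2 smallest log2 fold changes with a mean of at least 10 CPM, plus called genes; 1 listed gene is not reported here. Near-identical copies were sought among GENCODE M21 transcripts (at least 95% identity over 150 bases). Aste1, which matched Atp2c1, and Gm44101, which matched Itpr1, share exonic bases with those members on the opposite strand. These matches thus need not be separate copies. Apart from Aste1, the matching genes had 0 counts. The alternatives were 3 other scalings, 2 other filters, DESeq2 1.42.0, limma-voom (limma 3.58.1), a block for the replicate number, and each library left out. A glmQLFit run with legacy FALSE and a block with crossed numbers were added after seeing the data.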

Additional observations from a re-analysis of the deposited data

How the results depend on the processing

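None of the 7 members with an estimate passed the threshold in the main test or in any of the 13 alternatives run for them. Atp2b1, Atp2b4, Itpr3 and Atp2a2 kept their direction in all 13, while 3 members reversed when 1 library was left out: Trpv4 (1.17 to -0.45 without cKO replicate 1), Itpr2 (-0.21 to 0.23 without cKO replicate 2) and Atp2c1 (-0.54 to 0.22 without control replicate 2). With each library left out in turn, Trpv4 ranged from -0.45 to 2.04, Itpr2 from -1.20 to 0.23 and Atp2c1 from -2.05 to 0.22. Over all alternatives Atp2b1 ranged from -1.56 to -0.74, Atp2b4 from -1.16 to -0.85, Itpr3 from -1.52 to -1.13 and Atp2a2 from 0.021 to 1.24. Library totals as the only scaling moved the median of all genes by -0.21, and relative to that shift the members' estimates moved little (Atp2b1 was at -1.44 and Atp2a2 at 0.23).

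Over all genes the 28 higher and 8 lower calls became 49 and 26 without a count filter, 12 and 3 with limma-voom, and 16 and 1 with the replicate number as a block; lower calls became 14 with a mean of at least 10 CPM. When 1 library was left out, higher calls ranged from 27 to 48 and lower calls from 4 to 28. The lone library of a group was then assumed to vary like the other group, and the genes tested were kept. Same-numbered libraries did not deviate together (correlation -0.163 over tested genes, and -0.326 over those averaging 100 CPM or more). A shared origin with a small effect could be missed by such a correlation. Whether the numbers pair the libraries is therefore not known. The block with crossed numbers gave 90 higher and 57 lower calls. Under the replicate block the log2 fold change was -1.14 for Atp2b1, -0.92 for Atp2b4 and -1.33 for Itpr3. The cause of these moves was not tested, apart from the number of genes (17179 without a filter) and libraries that the settings themselves change. The class sums kept within 1 SD of their log2 ratio under every scaling and with each library left out. That SD is wide and comes from the spread of the same 2 libraries per group. Leaving 1 library out could therefore hardly move a ratio past it. With libraries left out, the ratio of 0.46 for the TRPV channels ranged from -1.09 to 2.04 and that of -0.70 for the Golgi pump from -2.01 to 0.062, both with a change of sign. The SERCA ratio of 0.51 ranged from 0.058 to 1.16, the IP3 receptor ratio of -0.69 from -1.32 to -0.25 and the plasma membrane pump ratio of -1.10 from -1.36 to -0.79. Depth limits cKO replicate 2 most, where Itpr3, Atp2c1 and Trpv4 had 5, 1 and 2 counts.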
